A study of Mus musculus with 36 samples.

Results

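The genes described here are 8 transcripts that mark mesothelial cells, *Msln*, *Upk3b*, *Upk1b*, *Krt8*, *Krt18*, *Krt19*, *Wt1* and *Lrrn4*, followed over every group of an RNA sequencing (RNA-seq) series of mouse epididymal white adipose tissue (eWAT). They were taken by name: a row of the table of normalized counts was a member when its Ensembl identifier mapped to one of the 8 symbols. Each symbol had 1 row, so the members were 8 of 24750 rows. The 36 libraries came from male C57BL/6 wild-type (WT) mice and from Adipoq-CCL19-KI (CCL19-KI) mice, in which the chemokine gene *Ccl19* was knocked into the adiponectin locus so that adipocytes express it, as a homozygous line bred apart from the WT mice. Mice of both genotypes received a normal diet (ND), a 40% high-fat diet (40% HFD) or a 60% HFD for 10 weeks, from 6 weeks of age, and in one arm of each a silk ligature around a molar induced periodontitis during the last 2 weeks. This made 12 groups of 3 mice, each mouse giving 1 library, and lymph nodes had been dissected away from the fat before RNA was extracted. The sample labels give ligatures in 6 of the 12 groups, whereas the text describing the series speaks of ligatures without naming unligatured mice. The labels were followed, and every ligature contrast rests on them.

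The mesothelium is the single layer of flattened cells that lines the serous cavities and covers the organs within them, including the surface of the epididymal fat pad. Its cells arise from mesoderm yet carry keratin filaments and apical surface proteins like an epithelium, and they release lubricating fluid and surface glycoproteins. Because they cover a fat pad rather than fill it, they contribute a small share of its RNA, and in bulk tissue fewer mesothelial cells and less RNA per mesothelial cell cannot be told apart.

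The libraries held 11962228 to 21581595 recovered reads, and the members' lowest and highest read numbers were 169 and 17728, so no member was near the detection limit in any library. Values are normalized CPM, read counts scaled by the authors within each library. Their sums over a library ran from 799716 to 1208061 CPM, so the scaling was not to a common sum. *Adipoq*, the adiponectin gene that marks adipocytes, was at 300.1 to 3937 CPM, so the tissue label held in each library. *Ccl19* was at 0.507 to 4.51 CPM in 17 of the 18 WT libraries and at 5.57 to 34.6 CPM in 17 of the 18 CCL19-KI libraries, with 1 exception on each side. The library labelled WT ND no ligature replicate 2 held 19.2 CPM, and the library labelled CCL19-KI 60% HFD no ligature replicate 3 held 0.687 CPM. *Gm2564*, a predicted gene chosen after its values were seen, was at 0.160 CPM or less in the other WT libraries and at 11.6 CPM or more in the other CCL19-KI libraries. It stood at 41.9 CPM in the former exception and at 0 in the latter. Both libraries went against their genotype label, and called results from comparisons that contain either are also given without both. Genes typical of other organs were read as well, and the source of these reads was not tested. *Alb*, the serum albumin gene of hepatocytes, was below 15 CPM in 6 libraries and reached 26901 CPM among the other 30. The sum of 12 epididymal epithelium genes was at least 1000 CPM in 6 libraries, among them both libraries that went against their label.

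Proximal promoters were available for 4 members, and they are shown because these members form the closest-running pair of the set, *Lrrn4* and *Upk3b*, and the pair that ran apart from it, *Krt8* and *Krt18*. Each sequence is from RefSeq on build GRCm38.p6 and reads 5′ to 3′ on the gene's strand. It covers 250 bases before to 50 bases after the RefSeq start of the gene. For *Lrrn4*, *Krt8* and *Krt18* this start differs from the GENCODE gene bounds given later. Capitals mark matches, on either strand, to GGAATG, the core bound by TEAD factors, or to TATAAA, the TATA box.
*Lrrn4*, chr2:132880813-132881112, minus strand: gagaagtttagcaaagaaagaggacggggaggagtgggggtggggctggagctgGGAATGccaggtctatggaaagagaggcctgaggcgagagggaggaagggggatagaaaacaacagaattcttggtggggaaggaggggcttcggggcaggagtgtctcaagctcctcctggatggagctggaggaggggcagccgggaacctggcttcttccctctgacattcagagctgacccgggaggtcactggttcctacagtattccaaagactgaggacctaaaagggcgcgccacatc
*Upk3b*, chr5:136038246-136038545, plus strand: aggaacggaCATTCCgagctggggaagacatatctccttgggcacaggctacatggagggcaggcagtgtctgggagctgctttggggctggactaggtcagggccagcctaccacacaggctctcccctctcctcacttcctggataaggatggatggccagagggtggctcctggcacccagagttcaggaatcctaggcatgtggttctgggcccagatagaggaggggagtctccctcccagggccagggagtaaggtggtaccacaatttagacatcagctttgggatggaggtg
*Krt8*, chr15:102004293-102004592, minus strand: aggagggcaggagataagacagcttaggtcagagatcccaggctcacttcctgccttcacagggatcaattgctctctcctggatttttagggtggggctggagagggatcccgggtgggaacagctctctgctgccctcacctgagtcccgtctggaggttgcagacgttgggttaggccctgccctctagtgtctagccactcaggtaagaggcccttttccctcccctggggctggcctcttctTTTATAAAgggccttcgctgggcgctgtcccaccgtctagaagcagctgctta
*Krt18*, chr15:102027966-102028265, plus strand: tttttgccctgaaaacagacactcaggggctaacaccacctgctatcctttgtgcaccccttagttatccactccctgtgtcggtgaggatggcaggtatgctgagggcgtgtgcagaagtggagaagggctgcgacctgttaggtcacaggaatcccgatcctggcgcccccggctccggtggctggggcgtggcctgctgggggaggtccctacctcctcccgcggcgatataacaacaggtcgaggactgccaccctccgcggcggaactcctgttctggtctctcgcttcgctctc
GGAATG was present in *Lrrn4* at position 55 of the window on the gene's strand and in *Upk3b* at position 10 on the opposite strand, and in neither keratin promoter. Of 32851 RefSeq promoter windows of the same length, 14.7% held it. TATAAA was present in *Krt8*, at position 250 on the gene's strand and, overlapping it, at position 248 on the opposite strand. Both matches span the RefSeq start, whereas the GENCODE bounds place the start of *Krt8* further upstream, at 102004482. TATAAA was in no other of the 4 windows, against 13.6% of all windows. The GC box GGGCGG (35.7% of all windows) and the AP-1 motif TGANTCA (7.81%) were in none of the 4. These are matches of letters only.

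*Msln* encodes mesothelin, a surface glycoprotein anchored to the mesothelial membrane (chromosome 17, 25748613 to 25754378). It was at 126.6 CPM in the median library, with a range from 25.6 to 430.0 CPM. *Upk3b* and *Upk1b* encode uroplakins, plaque proteins first known from the urothelium. *Upk3b* (chromosome 5, 136038496 to 136046487) was the most abundant member, with a median of 273 CPM and a range from 44.1 to 836 CPM, and *Upk1b* (chromosome 16, 38773184 to 38800328) had a median of 55.9 CPM with a range from 9.91 to 152 CPM. *Lrrn4*, a leucine-rich repeat membrane protein (chromosome 2, 132868305 to 132880891), had a median of 124 CPM. *Wt1*, the transcription factor that marks mesothelial cells from the embryo on (chromosome 2, 105126529 to 105173616), had the lowest median, 34.9 CPM, with a range from 9.66 to 77.4 CPM. The keratins of simple epithelia followed: *Krt8* had a median of 59.9 CPM and *Krt18*, its filament partner, of 47.3 CPM. The 2 genes lie on chromosome 15, at 101996698 to 102004482 and at 102028180 to 102032027. *Krt19*, a type I keratin of simple epithelia (chromosome 11, 100140810 to 100148665), had a median of 54.9 CPM. Gene positions are from GENCODE M21 on build GRCm38. Per kilobase of exon, the median level was highest for *Upk3b* at 77.4 CPM per kb and lowest for *Wt1* at 5.63 CPM per kb, and the other 6 members lay between 26.8 CPM per kb for *Upk1b* and 41.3 CPM per kb for *Msln*.

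**Figure D1:**
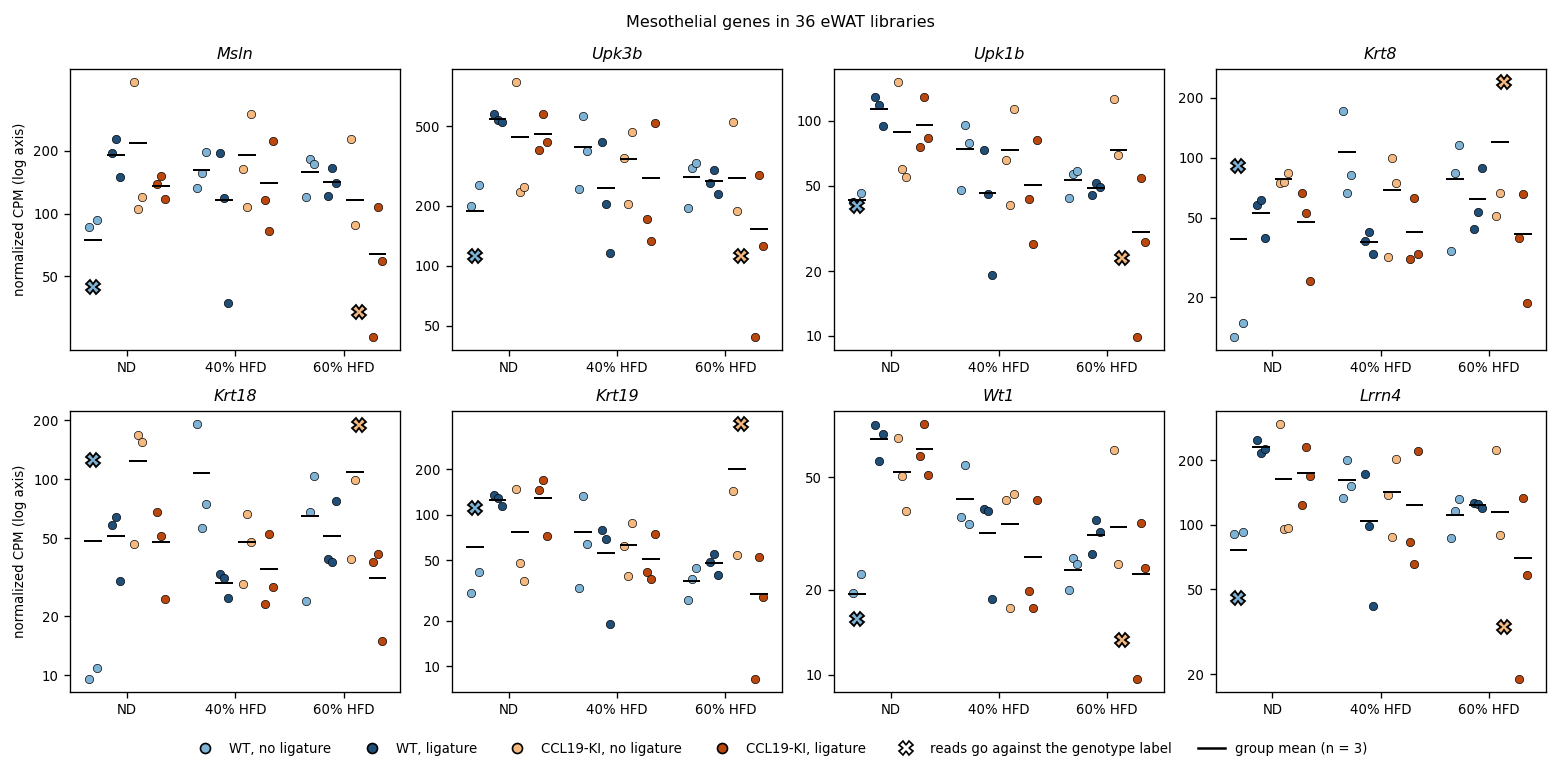
Normalized CPM on a log axis for each of the 8 members in 36 eWAT libraries, by diet, with 1 point per mouse, colours for genotype and ligature, a bar at the mean of each group of 3, and crosses for both libraries whose reads go against their genotype label. The 3 libraries labelled CCL19-KI 60% HFD ligature include the lowest value of 6 of the 8 members.

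The spread between mice of a group was wide. The highest library of a group exceeded the lowest by a median of 2.41 times for *Msln*, 2.96 times for *Krt19* and 1.72 times for *Wt1*, the steadiest member. One library, CCL19-KI 60% HFD ligature replicate 1, was the lowest of all 36 for *Msln*, *Upk3b*, *Upk1b*, *Krt19*, *Wt1* and *Lrrn4*. It was also the most deeply read, with 21581595 reads. When the 12 group means of a member were put in order, every one of the 11 neighbouring pairs of groups overlapped, for each of the 8 members, so no group could be set apart from the next. The mean of *Msln* ran from 218 ± 184 CPM (SD, n = 3) in CCL19-KI ND no ligature down to 64.1 ± 41.1 CPM (SD, n = 3) in CCL19-KI 60% HFD ligature, and even these overlapped. *Upk3b*, *Upk1b* and *Lrrn4* had their highest mean in WT ND ligature, at 544 ± 27.1, 114 ± 18.0 and 230 ± 17.2 CPM (SD, n = 3), and their lowest in CCL19-KI 60% HFD ligature, at 152 ± 123, 30.5 ± 22.3 and 70.0 ± 57.9 CPM (SD, n = 3). The mean of *Wt1* was also highest in WT ND ligature, at 68.2 ± 9.94 CPM (SD, n = 3), but lowest in the group labelled WT ND no ligature, at 19.3 ± 3.46 CPM (SD, n = 3). Of the 66 possible pairs of groups, the number that did not overlap was largest for *Wt1*, 23, and smallest for *Krt18*, 7. The share over all genes was not computed for the 66 pairs. In each single comparison described later, 3.34% to 19.2% of all genes tested were higher and 3.75% to 17.7% lower without overlap.

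The first question was whether the members vary together across mice. Pearson correlations were computed on log2(CPM + 1) for the 28 pairs over 36 libraries, each with a two-sided permutation test. *Msln*, *Upk3b*, *Upk1b*, *Wt1* and *Lrrn4* ran together: the 10 pairs among them had r from 0.754 to 0.978, and each had a permutation p of 1e-05, the smallest the resamples can give, and an adjusted p of 2.55e-05. Spearman's rho for these pairs was 0.720 to 0.963, with adjusted permutation p of 6.00e-05 or less. Leaving out the 2 libraries farthest from the median of the first gene gave r from 0.662 to 0.969, and the deviations from the group means, which remove every difference between groups, gave r from 0.860 to 0.974. The closest pair was *Upk3b* and *Lrrn4*, at 0.978. Within the 30 libraries with *Alb* of at least 15 CPM, r for the 10 pairs was 0.727 to 0.981, and within the 6 others it was 0.886 to 0.985. It was 0.705 to 0.981 without both libraries that went against their genotype label.

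*Krt8* and *Krt18* formed a pair of their own. Their r was 0.928, with a Spearman rho of 0.939, and it was 0.909 without the 2 farthest libraries and 0.915 for the deviations from group means, and 0.921 without both libraries that went against their label. None of their 10 pairs with *Msln*, *Upk3b*, *Upk1b*, *Wt1* or *Lrrn4* passed the permutation test, with r from -0.0458 to 0.0766 and adjusted p of 0.884 or more. For the deviations from group means these 10 values lay between -0.435 and -0.232. Their sign depended on the libraries included. In the libraries with *Alb* of at least 15 CPM they were 0.126 to 0.314, and in those below that level -0.695 to -0.251. Without the libraries rich in epididymal genes they were 0.146 to 0.366, and without both libraries that went against their label 0.140 to 0.354.

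*Krt19* stood between both sets. Over all 36 libraries its r with *Msln*, *Upk3b*, *Upk1b*, *Wt1* and *Lrrn4* was 0.389 to 0.646, with adjusted permutation p from 7.00e-05 to 0.0340, Spearman's rho was 0.507 to 0.698 with adjusted permutation p of 0.00282 or less, and r without the 2 farthest libraries was 0.439 to 0.775. The libraries were divided at chosen levels of *Alb* and of the epididymal sum, and the relation differed between the sets. The 6 libraries with *Alb* below 15 CPM include both libraries that went against their genotype label. In the 30 libraries with *Alb* of at least 15 CPM, r was 0.797 to 0.922, whereas in the 6 libraries below that level it was -0.469 to -0.0426. Without the 6 libraries rich in epididymal genes r was 0.848 to 0.940, and without both libraries that went against their genotype label it was 0.775 to 0.926. The pooled value therefore rests on which libraries are included. With *Krt8* and *Krt18*, *Krt19* had r of 0.345 and 0.279, neither of which passed the test (adjusted permutation p = 0.0666 and 0.156), although r was 0.950 and 0.913 in the 6 libraries with low *Alb* and at most 0.118 in the 30 others.

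**Figure D2:**
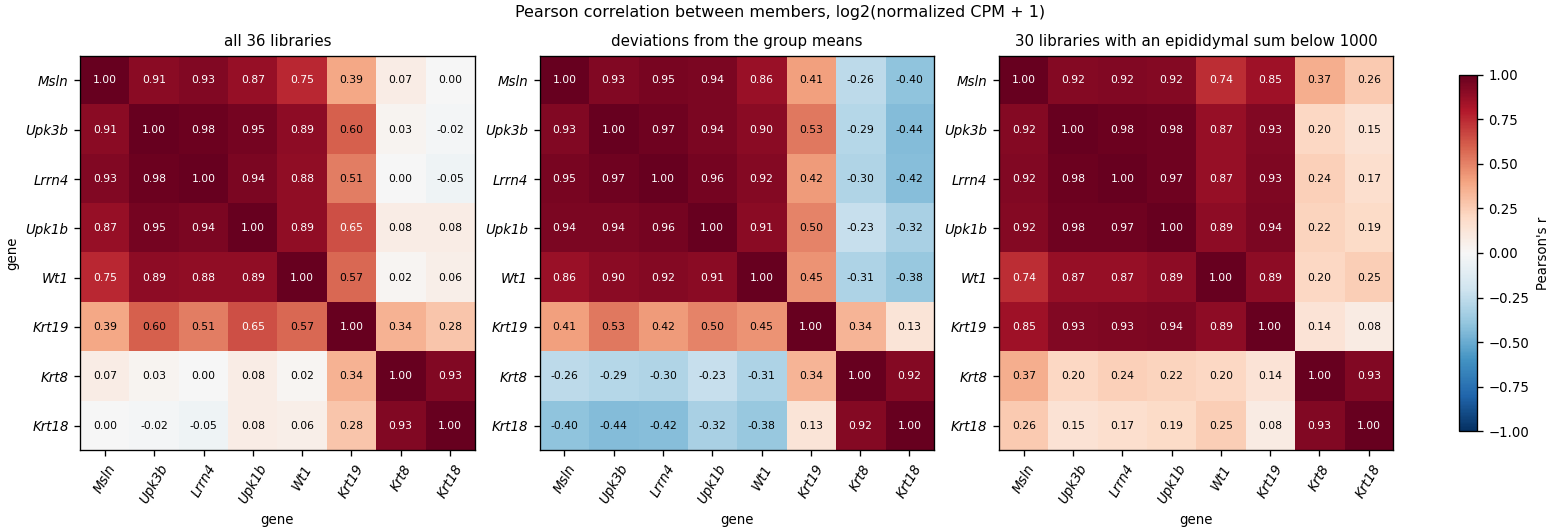
Pearson's r between each pair of members on log2(normalized CPM + 1), over all 36 libraries (left), for deviations from the 12 group means (middle) and over the 30 libraries with a summed epididymal list below 1000 CPM (right). *Krt8* and *Krt18* form a block of their own in each panel, and *Krt19* joins *Msln*, *Upk3b*, *Lrrn4*, *Upk1b* and *Wt1* in the right panel, with r of 0.848 to 0.940.

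The genes whose pattern over the 36 libraries was most like each member's were then listed, as a description, among 11781 genes with a mean of at least 5 CPM. The nearest to *Msln* was *Gpm6a*, a membrane glycoprotein (r = 0.953). *Tmem151a* was near both *Upk3b* and *Upk1b* (r = 0.956 and 0.966), *Fmod*, the matrix proteoglycan fibromodulin, was next for *Upk1b* (r = 0.957), and *Bnc1*, the transcription factor basonuclin 1, was near *Lrrn4* (r = 0.966). *Wt1* had *Kcnab1*, a potassium channel subunit, and *Nkain4* as its nearest (r = 0.946 and 0.945). *Krt8* was nearest to *Mpzl2*, an epithelial adhesion molecule (r = 0.928), and then to *Krt18*, and *Krt18* to *Krt8* and then to *AC102496.1* (r = 0.913). *Krt19* had other neighbours, *Itpr3*, an inositol trisphosphate receptor, and *Gprc5a*, an orphan receptor (r = 0.947 and 0.939). For the mean of the 8 scaled members the nearest were *Pard6b*, a cell polarity protein (r = 0.958), and *Bcam*, a laminin-binding adhesion molecule (r = 0.930), followed by *Krt7*, *Stk26*, *Nkain4*, *Tmem151a*, *Lgals7*, *Twsg1*, *P3h4* and *Cd200*, at r from 0.894 to 0.916.

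A list of 12 further mesothelial genes was read alongside. With the mean of *Msln*, *Upk3b*, *Upk1b*, *Wt1* and *Lrrn4*, 11 of the 12 had r between 0.773 for *Dmkn* and 0.978 for *Rspo1*, a secreted Wnt agonist. The exception was *Calb2*, calretinin, at r = 0.0120. It held no read in 20 libraries and reached 1 CPM in 4. *Upk1a*, *Upk2* and *Upk3a*, the uroplakins that define the urothelium, reached at most 4.27, 6.23 and 1.04 CPM, and their medians were 0.177, 0.0601 and 0.0623 CPM. *Nphs1*, which marks the *Wt1*-expressing podocytes of the kidney, reached at most 0.390 CPM. These uroplakins and *Nphs1* were at or near 0 in the median library. Some genes of other lists also ran with that mean of *Msln*, *Upk3b*, *Upk1b*, *Wt1* and *Lrrn4*. Of the adipose progenitor and fibroblast list, *Dpp4* and *Dcn* (medians 157 and 1718 CPM) had r of 0.874 and 0.759. The rest of that list had r from -0.1165 for *Fn1* to 0.482 for *Col1a1*. Of the kidney tubule list, *Lrp2* (median 123 CPM) had r of 0.806, and the rest had r from -0.262 to 0.0231.

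Levels of *Krt8*, *Krt18* and *Krt19* were set beside those of other epithelia. The library labelled CCL19-KI 60% HFD no ligature replicate 3 had the highest *Krt8* and *Krt19* of the series, 241 and 399 CPM, together with 189 CPM of *Krt18*. In the same library the sum of 7 general epithelial genes was 720 CPM and that of the epididymal list 12724 CPM, while *Msln* was at 33.7 CPM. The library labelled WT ND no ligature replicate 2 held 90.5, 125 and 110 CPM of *Krt8*, *Krt18* and *Krt19* beside an epididymal sum of 13165 CPM and *Msln* at 44.3 CPM. Its 2 group mates held 12.7 and 14.9 CPM of *Krt8*, the lowest 2 values of the 36. The highest *Krt18*, 192 CPM, was in WT 40% HFD no ligature replicate 1, where the hepatocyte list summed to 29089 CPM and the epididymal list to 4.06 CPM. Over the 30 libraries without a high epididymal sum, *Krt8* and *Krt18* had r of 0.721 and 0.694 with the mean log2 level of the hepatocyte list. *Krt19* had r of -0.271 there and of -0.443 over all 36 libraries. In those 30 libraries *Msln* had r of -0.0462, and *Upk3b*, *Upk1b*, *Wt1* and *Lrrn4* had r from -0.232 to -0.205. For *Krt8* and *Krt18* these values were 0.328 and 0.299 over all 36 libraries, 0.458 and 0.453 over the 30 with *Alb* of at least 15 CPM, and 0.500 and 0.547 over the 27 that met both conditions. Over the libraries without a high epididymal sum the general epithelial list gave r of 0.305 with *Krt8* and the adipocyte list gave -0.648. Over all 36 libraries, the 7 general epithelial genes had r from 0.306 to 0.831 with *Krt8* and from 0.393 to 0.843 with *Krt18*. These are descriptions over libraries that share composition, and the part of other tissues in the keratin levels was not tested.

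**Figure D3:**
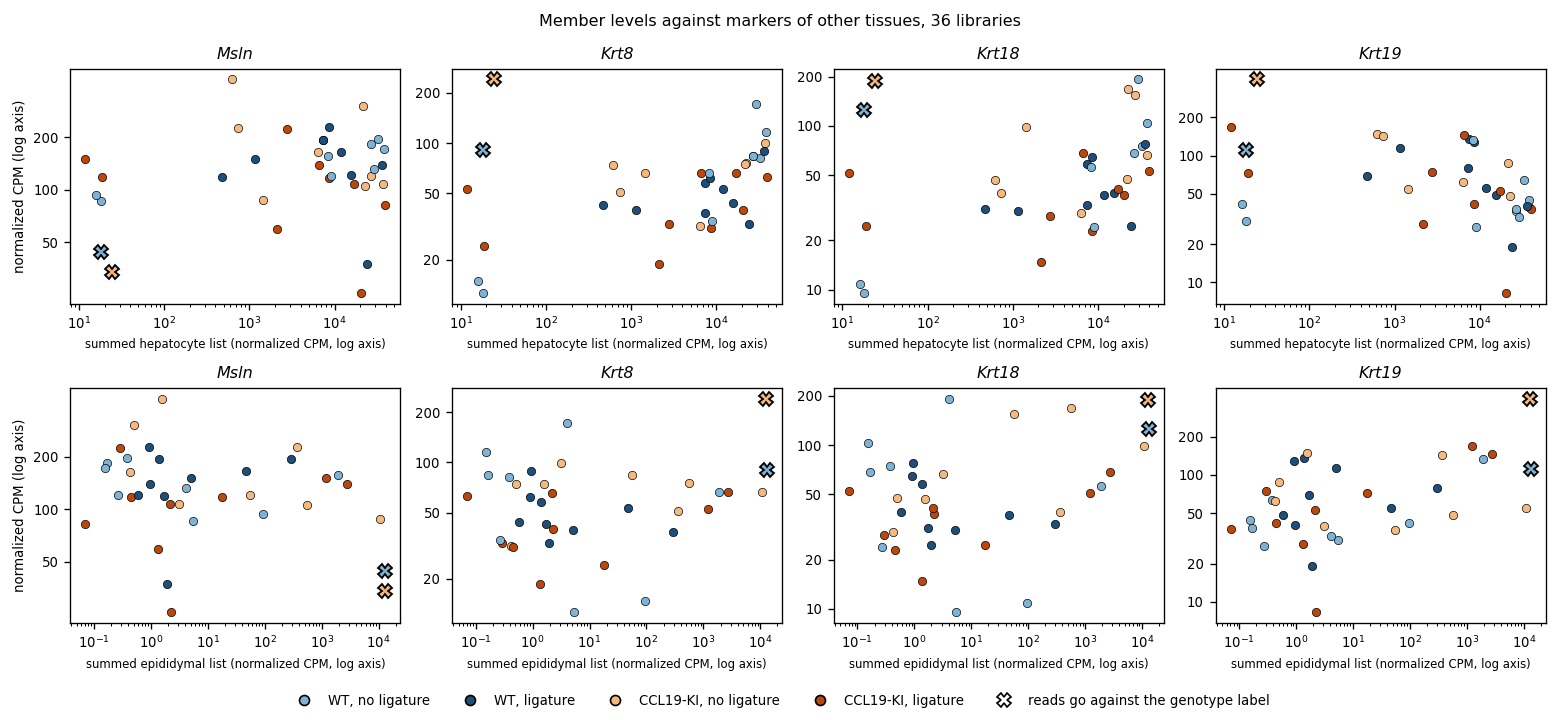
Normalized CPM of *Msln*, *Krt8*, *Krt18* and *Krt19* in 36 libraries against the summed hepatocyte list (top) and the summed epididymal list (bottom), all on log axes, with colours for genotype and ligature and crosses for both libraries whose reads go against their genotype label. Both crosses lie at the right of the lower panels, with low *Msln* and high keratins.

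Whether dietary fat moved the members was asked next, averaging each contrast over the 4 combinations of genotype and ligature, with limma on log2(CPM + 1) over 17852 genes. On this average *Wt1* and *Upk1b* fell under the 60% HFD against ND, but not in each of the 4 combinations. In unligatured WT mice the group means under ND and the 60% HFD were 19.3 and 23.5 CPM for *Wt1*. For *Upk1b* they were 42.75 and 53.04 CPM. That ND group holds a library that went against its genotype label. In the other combinations the means of both genes were lower under the 60% HFD. Over the 12 libraries of each diet, *Wt1* ranged from 15.7 to 77.4 CPM under ND, with a median of 54.1 CPM, from 17.2 to 55.2 CPM under the 40% HFD, with a median of 37.1 CPM, and from 9.66 to 62.3 CPM under the 60% HFD, with a median of 25.2 CPM. The ranges overlapped widely. *Wt1* fell by 0.81 ± 0.22 on the log2 scale (SE, limma, adjusted p = 0.0136). *Upk1b* ranged from 40.2 to 152 CPM under ND and from 9.91 to 126 CPM under the 60% HFD, with medians of 79.6 and 50.4 CPM. It fell by 0.80 ± 0.28 (SE, limma, adjusted p = 0.0448), close to the threshold. Both belong to the 2 of 8 members called lower, where 8.40% of all genes tested were called lower and 10.2% higher, and no member was called higher.

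The other 6 members did not pass the test under the 60% HFD, although 5 of 8 members had an unadjusted p under 0.05 and a lower level. The same held for 2949 of the 17852 genes tested. *Upk3b*, *Krt19*, *Lrrn4* and *Msln* had log2 fold changes of -0.77, -0.76, -0.66 and -0.39, with 95% confidence intervals from -1.40 to -0.14, -1.45 to -0.07, -1.29 to -0.02 and -1.02 to 0.24, and *Krt8* and *Krt18* of 0.39 and 0.08. The median over the 8 was -0.71 beside 0.01 over all genes tested. Of the 12 further mesothelial genes, *Muc16*, a membrane mucin, fell by 0.90 on the log2 scale (adjusted p = 0.0347) and *Nkain4* by 0.76 (adjusted p = 0.0409). *Calb2*, near the detection limit, fell by 0.78 (adjusted p = 0.00875) and was the other of the 3 called lower, and none was called higher. The median over the 12 was -0.56. Hepatocyte genes moved with the same contrast: 12 of 12 were called higher, with a median log2 fold change of 2.99. With the hepatocyte level as a covariate no member was called, and *Wt1* had an adjusted p of 0.132. Without both libraries that went against their genotype label, *Wt1* fell by 0.72 (adjusted p = 0.0282) and *Upk1b* had a log2 fold change of -0.65 (adjusted p = 0.106). Without the 6 libraries rich in epididymal genes neither was called, with adjusted p of 0.182 for *Wt1* and 0.312 for *Upk1b*. The part of liver or epididymal RNA in these differences was not tested.

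Under the 40% HFD against ND, limma called 0 of 8 members in either direction, where 5.36% of all genes tested were called higher and 3.85% lower. At an unadjusted p under 0.05 there was 1, *Wt1*, with a log2 fold change of -0.52 ± 0.22 (SE, adjusted p = 0.134), and edgeR called 0 as well. At that unadjusted level 2370 of the 17852 genes tested were lower. Between the 60% HFD and the 40% HFD limma called 0 of 8, with 0 at an unadjusted p under 0.05 and 0 by edgeR, beside 0.465% of all genes higher and 0.280% lower. The log2 fold changes there were -0.42 to 0.19.

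CCL19-KI mice did not differ detectably from WT mice in any member when the 6 combinations of diet and ligature were averaged. Limma called 0 of 8, with 0 at an unadjusted p under 0.05 and 0 by edgeR, where 0.286% of all genes tested were called higher and 0.174% lower. The estimates lay between -0.17 for *Lrrn4* and 0.20 for *Krt19*, with the signs for *Msln*, *Upk3b*, *Upk1b* and *Lrrn4* turned in edgeR, and the 95% confidence interval of *Wt1*, the most precise, ran from -0.34 to 0.40. *Msln* averaged 144 CPM in CCL19-KI and 141 CPM in WT mice. The interval of its log2 difference ran from -0.64 to 0.38.

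Periodontitis was likewise followed by no called change when averaged over genotype and diet. Limma called 0 of 8 and edgeR 0, where 0.286% of all genes were called higher and 0.0392% lower. At an unadjusted p under 0.05 there were 2, both lower, as were 1604 of the 17852 genes tested. The 2 were *Krt8* and *Krt18*, with log2 fold changes of -0.56 ± 0.26 and -0.70 ± 0.30 (SE, adjusted p = 0.281 and 0.257). The other 6 members lay between -0.18 and 0.20. For the ligature, for the genotype, for the 40% HFD against ND and for the 60% against the 40% HFD, limma again called 0 of 8 without both libraries that went against their label.

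**Figure D4:**
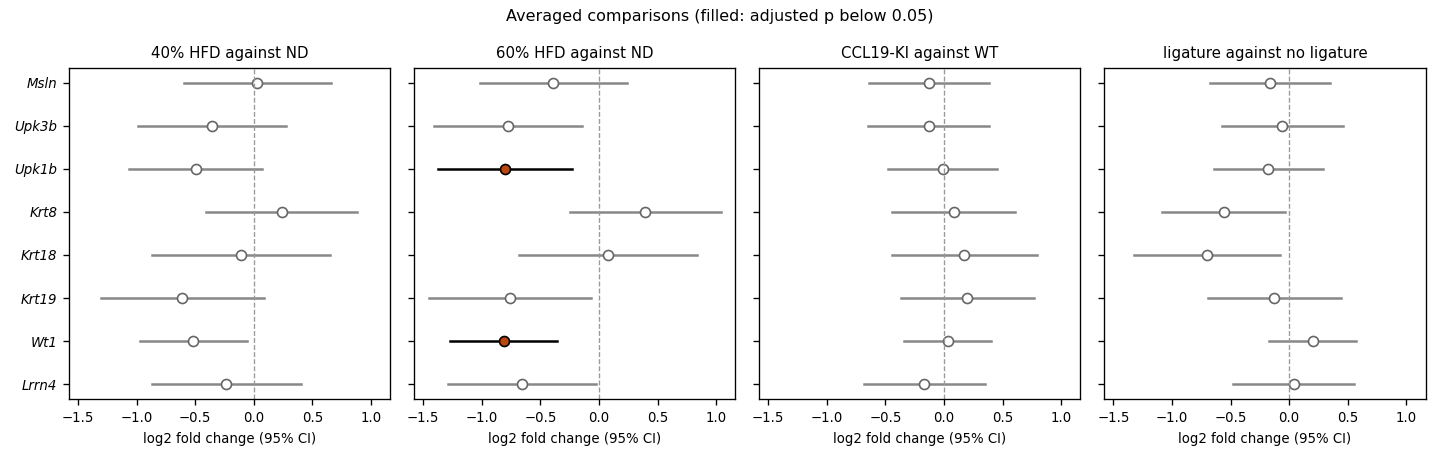
Log2 fold change of each member with its 95% confidence interval from limma, for 4 contrasts averaged over the remaining factors, filled where the adjusted p is below 0.05. *Upk1b* and *Wt1* under the 60% HFD against ND are the filled points, at -0.80 and -0.81.

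Single groups were compared next, first ND-fed WT mice with and without ligatures. Without ligatures, the 3 libraries held 19.5, 15.7 and 22.6 CPM of *Wt1*, and with ligatures 76.5, 57.2 and 70.9 CPM. *Upk1b* was at 41.8, 40.2 and 46.3 CPM without and at 130, 118 and 94.5 CPM with ligatures, and *Lrrn4* at 90.8, 45.4 and 92.0 CPM against 249, 216 and 226 CPM. The second of the unligatured libraries is the one whose reads went against its label. Every ligatured library lay above every unligatured one for *Msln*, *Upk3b*, *Upk1b*, *Krt19*, *Wt1* and *Lrrn4*, 6 of 8 members, where 14.2% of all genes tested were separated in this direction.

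In the test of that contrast, *Wt1* rose by 1.77 ± 0.44 (log2, SE, adjusted p = 0.0196), the 1 of 8 members called, where 2.68% of all genes were called higher. *Msln*, *Upk3b*, *Upk1b* and *Lrrn4* had log2 fold changes of 1.40, 1.61, 1.39 and 1.65 with adjusted p of 0.155, 0.107, 0.123 and 0.0990. Without both libraries that went against their label, *Wt1* rose by 1.64 (adjusted p = 0.0240). *Krt8* and *Krt18* were then called too, with increases of 1.85 and 2.15 (adjusted p = 0.0274 and 0.0325) in place of the 0.97 and 0.98 that had not passed. The call of *Wt1* was lost on leaving out WT ND no ligature replicate 1 or WT ND ligature replicate 1 or 2, with an adjusted p of at most 0.113. Of the 12 further mesothelial genes, *Rspo1* rose by 1.76 (adjusted p = 0.0487), *Nkain4* by 1.67 (adjusted p = 0.0486) and *Cldn15*, a claudin, by 1.39 (adjusted p = 0.0448), and the median was 1.42. The median over the 8 members was 1.39 beside -0.05 over all genes tested. Hepatocyte genes separated the same groups, summing to 16.1 to 18.1 CPM without ligatures and to 1153 to 8518 CPM with them. With the hepatocyte level as a covariate *Wt1* was again called (adjusted p = 0.0328). The part of liver RNA in the difference was not tested.

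In the other 5 ligature contrasts no member was called higher. In the 60% HFD-fed CCL19-KI mice *Krt19* was lower with ligatures, at 8.29, 53.0 and 28.7 CPM against 144, 54.6 and 399 CPM without. The highest of these values is from the library labelled CCL19-KI 60% HFD no ligature replicate 3. *Krt19* fell by 2.59 ± 0.68 (log2, SE, adjusted p = 0.0281), where 4.14% of all genes were called lower. Without both libraries that went against their label its log2 fold change was -1.87 (adjusted p = 0.0786), and *Upk1b* was called in its place, with a log2 fold change of -1.88 (adjusted p = 0.0384). Leaving out either CCL19-KI 60% HFD no ligature replicate 1 or 3 or CCL19-KI 60% HFD ligature replicate 1 or 3 also ended the call of *Krt19*, with an adjusted p of at most 0.1795. Genes of other tissues moved with this contrast. The epididymal list averaged 7946 CPM without and 1.92 CPM with ligatures, and the general epithelial list 323 and 15.6 CPM. The call was lost with the epididymal or the hepatocyte level as a covariate (adjusted p = 0.116 and 0.146), and the part of these tissues was not tested. Every ligatured library was below every unligatured one for *Krt19*, as was so for 10.9% of all genes. WT mice fed the 40% HFD held less *Krt8* and *Krt18* with ligatures in every library, at 38.2, 42.6 and 32.7 CPM against 172, 66.5 and 81.8 CPM for *Krt8*, where 7.63% of all genes were lower in every library, but the difference did not pass (adjusted p = 0.318). Over the 6 single ligature contrasts, with 8 members tested in each, there were 2 calls, beside 2.29% of all gene tests.

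**Figure D5:**
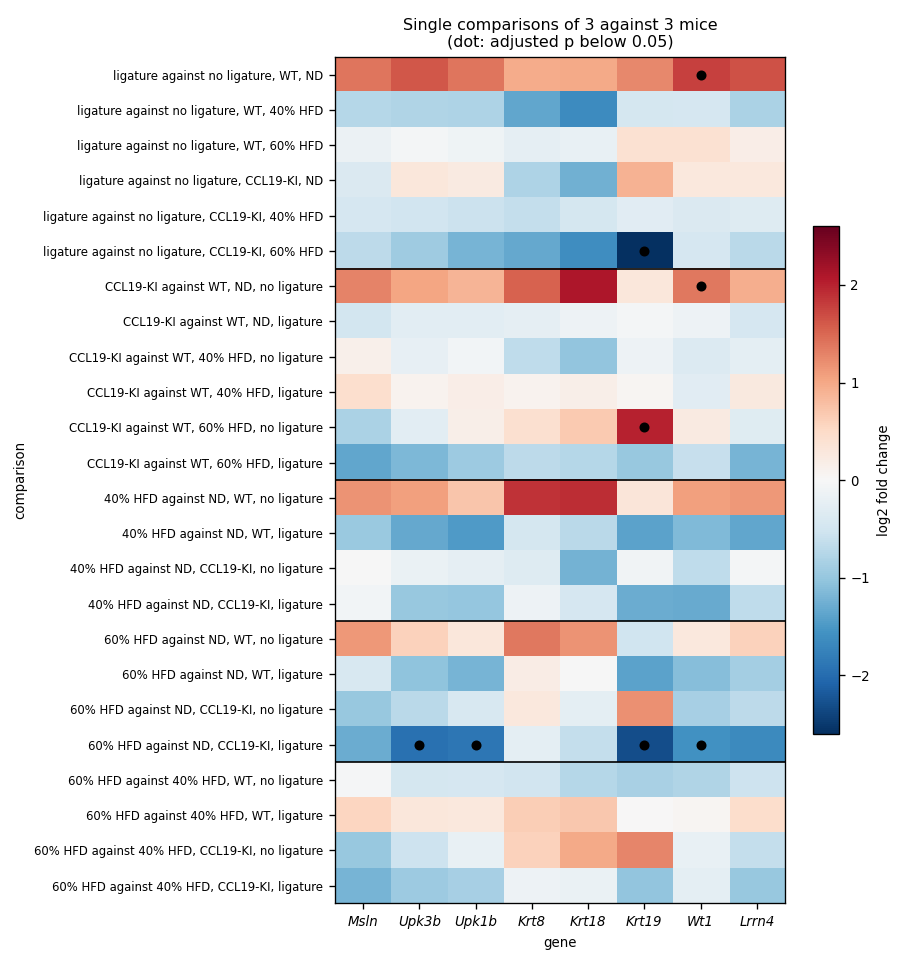
Log2 fold changes of the 8 members in the 24 comparisons of 3 against 3 mice, from limma, with a dot where the adjusted p is below 0.05. The 8 dots are *Wt1* and *Krt19* in the ligature and genotype blocks and *Upk3b*, *Upk1b*, *Krt19* and *Wt1* in ligatured CCL19-KI mice under the 60% HFD against ND.

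The genotype contrast in unligatured ND-fed mice used the same WT group. *Wt1* was at 68.9, 50.3 and 37.8 CPM in CCL19-KI libraries, all above the WT libraries given earlier, and was higher by 1.37 ± 0.44 (log2, SE, adjusted p = 0.0358), where 6.92% of all genes were called higher. *Msln*, *Upk1b*, *Wt1* and *Lrrn4* did not overlap between these groups, as was so for 13.4% of all genes in this direction. Without both libraries that went against their label *Wt1* had a log2 fold change of 1.24 (adjusted p = 0.0585), and *Krt8* and *Krt18* were called instead, higher by 2.42 and 3.27 (adjusted p = 0.00478 and 0.00238). In those CCL19-KI mice *Krt18* was at 46.8, 168 and 154 CPM, with hepatocyte sums of 619, 22635 and 26966 CPM. The summed exocrine pancreas list was at 0.189, 149.6 and 114.5 CPM in the same libraries, beside a median of 0.533 CPM over all 36. The part of liver or pancreas RNA was not tested. Under the 60% HFD without ligatures *Krt19* was higher in CCL19-KI mice by 2.00 ± 0.68 (log2, SE, adjusted p = 0.0424), where 8.73% of all genes were called higher. Its 3 WT libraries held 27.4, 37.9 and 44.4 CPM. Without both libraries in question its log2 fold change was 1.28 (adjusted p = 0.176), and leaving out any WT library of this contrast or CCL19-KI replicate 1 or 3 also ended the call. In these CCL19-KI libraries the epididymal list summed to 365, 10750 and 12724 CPM and the general epithelial list to 24.1, 226 and 720 CPM, against at most 0.268 and 25.8 CPM in the WT libraries. The call was lost with the epididymal level as a covariate (adjusted p = 0.199) and without the 6 libraries rich in epididymal genes (adjusted p = 0.1004). The part of this tissue was not tested. The call of *Wt1* in the ND-fed mice was likewise lost on leaving out any 1 of its 6 libraries (adjusted p of at most 0.120). In ligatured mice under the 60% HFD, *Msln* was lower in every CCL19-KI library than in every WT library, as were 4.70% of all genes, without passing the test. Over the 6 single genotype contrasts, with 8 members tested in each, there were 2 calls, beside 5.73% of all gene tests.

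The diet contrast with the most member calls was 60% HFD against ND in ligatured CCL19-KI mice, a pair of groups that holds neither library in question. *Upk1b* was at 76.0, 129 and 83.1 CPM under ND and at 9.91, 54.3 and 27.4 CPM under the 60% HFD. *Wt1* was at 59.7, 77.4 and 51.0 CPM under ND and at 9.66, 34.4 and 23.8 CPM under the 60% HFD, and *Krt19* at 146, 169 and 72.5 CPM against 8.29, 53.0 and 28.7 CPM. Every 60% HFD library was below every ND library for *Msln*, *Upk3b*, *Upk1b*, *Krt19* and *Wt1*, where 17.7% of all genes were separated in this direction. *Upk3b*, *Upk1b*, *Krt19* and *Wt1* were called, 4 of 8, where 6.17% of all genes were called lower. They fell by 1.93, 1.87, 2.31 and 1.58 on the log2 scale (adjusted p = 0.0401, 0.0298, 0.0275 and 0.0234), and *Lrrn4* had a log2 fold change of -1.65 (adjusted p = 0.0708).

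Leaving out CCL19-KI 60% HFD ligature replicate 1, the lowest library of the series for these genes, ended the calls of *Upk3b*, *Upk1b*, *Krt19* and *Wt1*. CCL19-KI ND ligature replicate 2 ended them likewise, CCL19-KI ND ligature replicate 3 and CCL19-KI 60% HFD ligature replicate 3 ended those of *Upk3b* and *Upk1b*, and CCL19-KI ND ligature replicate 1 that of *Krt19*, with an adjusted p of at most 0.245. Genes of other tissues differed between these groups. The epididymal list summed to 2746, 1211 and 17.7 CPM under ND and to at most 2.26 CPM under the 60% HFD. The hepatocyte list summed to 6582, 11.9 and 18.9 CPM under ND and to 2138 to 20422 CPM under the 60% HFD. With the hepatocyte level as a covariate, when just the groups being compared were fitted, or without the 6 libraries rich in epididymal genes, none of the 4 was called. Without both libraries that went against their label, which lie in other groups, the same 4 were called and *Lrrn4* as well (adjusted p = 0.0417). The part of either tissue was not tested. Of the 12 further mesothelial genes 2 were called lower, *Nkain4* and *Calb2*, with log2 fold changes of -1.70 and -2.29 (adjusted p = 0.0321 and 0.00174), and the median was -1.41.

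Ligatured WT mice gave values in the same direction without a call. *Wt1* was at 76.5, 57.2 and 70.9 CPM under ND, at 38.5, 38.0 and 18.5 CPM under the 40% HFD and at 26.6, 35.3 and 32.0 CPM under the 60% HFD. *Upk3b*, *Upk1b*, *Krt19*, *Wt1* and *Lrrn4* were below every ND library in every library of either high-fat diet, 5 of 8 members, where 9.55% and 16.2% of all genes were separated in this direction under the 40% and the 60% HFD. The smallest adjusted p among them was 0.179, for *Wt1* under the 60% HFD. In WT mice without ligatures the direction was opposite. *Msln*, *Upk1b*, *Wt1* and *Lrrn4* were higher in every library under the 40% HFD than under ND, where 10.8% of all genes were, and none passed the test. Without both libraries that went against their label, *Krt8* and *Krt18* were called higher there, with log2 fold changes of 2.75 and 3.08 (adjusted p = 0.00889 and 0.0108). Hepatocyte genes were called higher in the same contrast, 12 of 12. *Msln* was also higher in every library under the 60% HFD than under ND in these mice, as were 11.6% of all genes. In ligatured CCL19-KI mice *Wt1* was lower in every library under the 40% HFD than under ND, as were 14.1% of all genes. Neither passed the test, although *Wt1* did without both libraries that went against their label (adjusted p = 0.0428). Over the 12 single diet contrasts, with 8 members tested in each, there were 4 calls, all of them in ligatured CCL19-KI mice. Of all gene tests in these contrasts 4.14% were called.

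For each member, 5 differences between effects were tested. Limma called 0 of 40 member tests and edgeR 0, where 0.0975% of all gene tests were called. An unadjusted p under 0.05 was found for 12 of the member tests and for 12143 of 89260 gene tests. The ligature effect under the 40% HFD minus that under ND was -1.43 ± 0.44 for *Wt1* and -1.49 ± 0.56 for *Upk1b* (log2, SE, adjusted p = 0.253 and 0.369). Under the 60% HFD minus ND it was -2.18 ± 0.68 for *Krt19* (adjusted p = 0.157). The genotype effect on *Msln* under the 60% HFD minus that under ND was -1.495 ± 0.61 (adjusted p = 0.152). Limma again called 0 without both libraries that went against their label. None of these passed, so a difference of the effects between diets was not shown.

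Keratins outside the set were measured for comparison. *Krt7*, the simple-epithelial keratin on the mesothelial list, had r of 0.912 with the mean of *Msln*, *Upk3b*, *Upk1b*, *Wt1* and *Lrrn4*, and r of 0.733 with *Krt19*. *Krt5* and *Krt14*, keratins of stratified and basal epithelia, had medians of 0.447 and 4.21 CPM, and *Krt15*, *Krt20* and *Krt10* had medians of 0.151, 0.261 and 1.25 CPM. *Krt79* rose under the 60% HFD against ND by 1.28 (log2, adjusted p = 0.00315), the 1 of 6 other keratins tested that was called, while *Krt20* was below the filter. *Krt80* had a median of 9.03 CPM and a log2 fold change of -0.20 there (adjusted p = 0.413).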

How the data were processed

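RNA-seq was performed on eWAT of 36 mice, 3 per group. According to the methods, rRNA-depleted strand-specific libraries were sequenced, and reads were trimmed with Trimmomatic and quantified with Bowtie2 within RSEM on mm10 transcripts. The submitters' processing notes give version 0.38 for Trimmomatic and 1.3.0 for RSEM and name GRCm39, so the build is uncertain. The deposited signal values are CPM normalized by the authors with edgeR. Dividing by the step of each library gave integers for 100% of values (tolerance 0.01), so reads were recovered and used for edgeR as an alternative. Ensembl identifiers were given symbols for 24626 of 24750 rows. No 2 libraries agreed within sampling noise (lowest chi-square per degree of freedom 15.3).

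Genes with at least 1 CPM in at least 3 libraries (17852) were tested with limma (version 3.58.1; R 4.3.3) on log2(CPM + 1), 1 fit of 12 group means over all libraries with a trended prior and Benjamini-Hochberg adjustment over all genes tested, at 0.05. Contrasts were averaged over the remaining factors or made between single groups, and fold changes on this scale understate those of low genes. The series text states that RNA was taken per mouse, so p-values measure the spread between mice. Correlations used 100000 resamples, adjusted over 28 pairs. The scripts were tested on simulated data. The members, gene lists and tests were chosen with earlier results of these data known. The 8 members, 2 nearest genes for each, the lists of 12 mesothelial genes and 7 keratins, and 10 genes nearest to the members' mean were named. Alternatives were other pseudocounts, filters, scalings, edgeR (version 4.0.16) quasi-likelihood, covariates, weights, a replicate block and leaving out libraries. Of 31-base words of *Krt8* and *Krt18*, 27.4% and 9.48% also occur in the pseudogenes *Krt8-ps* and *Gm5200*, which were not in the table, so their counts are uncertain to that extent. Replicate numbers did not pair samples: the deviations of same-numbered libraries correlated from -0.663 to 0.710, with a median of -0.0153.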

Additional observations from a re-analysis of the deposited data

Results flagged for a closer look

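In several members every library of 1 group moved one way under a contrast and every library of another group moved the opposite way. Whether these effects differ was not tested for these pairs of groups. Under the 40% HFD against ND, unligatured WT libraries were all higher and ligatured WT libraries all lower for *Upk1b* (log2 fold changes 0.73 and -1.47), *Wt1* (1.06 and -1.14) and *Lrrn4* (1.13 and -1.35), where 10.8% and 9.55% of all genes were separated in these directions. *Wt1* was also lower in every ligatured CCL19-KI library (-1.32), as were 14.1% of all genes. Under the 60% HFD against ND, *Msln* was higher in every unligatured WT library (1.13) and lower in every ligatured CCL19-KI library (-1.28), as were 11.6% and 17.7% of all genes. *Msln* was higher in CCL19-KI than in WT mice in every unligatured ND library (1.299) and lower in every ligatured 60% HFD library (-1.35), as were 13.4% and 4.70% of all genes. *Krt19* was higher with ligatures in every ND-fed WT library (1.25) and lower in every 60% HFD-fed CCL19-KI library (-2.59), as were 14.2% and 10.9% of all genes. The unligatured ND-fed WT group holds the library labelled WT ND no ligature replicate 2, and the unligatured 60% HFD-fed CCL19-KI group the library labelled CCL19-KI 60% HFD no ligature replicate 3, both of which went against their genotype label. The ND-fed unligatured WT group enters all 6 patterns. Without both libraries, the values that rest on them were 0.69 for *Upk1b*, 0.93 for *Wt1* and 0.80 for *Lrrn4* under the 40% HFD, 0.79 for *Msln* under the 60% HFD, 0.97 for *Msln* in CCL19-KI against WT mice, and 1.79 and -1.87 for *Krt19* with ligatures.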

How the results depend on the processing

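The count of members lower under the 60% HFD against ND, 2 of 8, became 5 with sample quality weights (whose estimation stopped short of convergence) and with the study's criteria of p and ratio, 1 with no filter, with edgeR, with the epididymal covariate, with the replicate block and without both libraries against their genotype label, and 0 with the hepatocyte covariate and without the 6 libraries rich in epididymal genes. Both of these omissions were chosen after seeing the data. It was 1 to 4 on leaving out single libraries. *Upk1b* lost its call on leaving out any 1 of 20 libraries, and *Wt1* kept its call on leaving out each of the 36 in turn. For the ligature average, 0 members became 1 with the study's criteria and with weights. The calls over the single genotype contrasts, 2, became 6 with the study's criteria and 0 with the hepatocyte covariate and in fits of only the compared groups, and 1 to 3 on leaving out libraries. Those over the single ligature contrasts, 2, became 11 with the study's criteria, 13 with weights, 1 with either covariate, 4 in fits of only the compared groups, 4 without both libraries in question, 5 without the epididymal ones, and 1 to 3 on leaving out libraries. Those over the single diet contrasts, 4, became 17 with the study's criteria, 19 with weights, 2 with edgeR, 0 with the hepatocyte covariate, 9 without both libraries in question, and 0 to 7 on leaving out libraries. In fits of only the compared groups there were 5, all in ligatured WT mice under the 60% HFD against ND and none among the original 4. The 0 calls among the differences between effects became 12 with the study's criteria, 18 with weights, and 0 to 1 on leaving out libraries. The replicate block changed no other count, although *Krt19* in unligatured CCL19-KI against WT mice under the 60% HFD lost its call (adjusted p = 0.0503) and *Krt18* in those under ND gained one (adjusted p = 0.0443), and 16 of 28 pairs correlated with it as without it, 14 to 17 on leaving out libraries. The study's criteria use an unadjusted p, and the share of all genes meeting them was not computed, nor that with weights. At an unadjusted p under 0.05 alone, 16014 of 107112 gene tests passed over the single genotype contrasts. Over the single ligature contrasts 15352 of 107112 passed, and over the single diet contrasts 37044 of 214224. The causes were not tested.

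Of 584 estimates of averaged log2 fold changes under other settings, 527 kept their direction and their side of the threshold, 4 gained and 9 lost a call and 44 turned direction, none of them called in the original fit. For *Msln* 40% HFD against ND turned to -0.092 with the epididymal covariate, -0.10 with quantile scaling, -0.054 without both libraries in question, -0.0029 without the epididymal ones and ran from -0.098 to 0.20 on leaving out single libraries. CCL19-KI against WT turned to 0.023, 0.026, 0.045 and 0.14 with edgeR for *Msln*, *Lrrn4*, *Upk3b* and *Upk1b*, to 0.0023 with a pseudocount of 5, 0.092 with quantile scaling and 0.090 without both libraries for *Upk1b*, to 0.015 with quantile scaling for *Upk3b*, to -0.093 and -0.073 with weights for *Krt19* and *Wt1*, and, without the epididymal libraries, to -0.028 for *Krt18*, -0.10 for *Krt8*, 0.024 for *Lrrn4*, 0.0065 for *Msln*, 0.17 for *Upk1b* and 0.049 for *Upk3b*. On leaving out single libraries it ran from -0.032 to 0.23 for *Krt8*, -0.10 to 0.097 for *Upk1b* and -0.064 to 0.11 for *Wt1*. *Krt18* under the 60% HFD against ND turned to -0.12 with edgeR, -0.43 with the hepatocyte covariate and -0.043 with quantile scaling, with a leave-out range of -0.076 to 0.37. Under the 40% HFD it turned to 0.27 with the epididymal covariate, 0.18 without both libraries and 0.48 without the epididymal ones, with a range of -0.27 to 0.18. With the hepatocyte covariate the 40% HFD values turned to 0.10 for *Krt19*, -0.084 for *Krt8*, 0.14 for *Lrrn4* and 0.041 for *Upk3b*. Between the 60% and 40% HFD, *Krt18* turned to -0.047 with the epididymal covariate and -0.20 without the epididymal libraries, *Krt8* to -0.013 and -0.13 without both or without the epididymal libraries, *Upk1b* to 0.020 and *Wt1* to 0.043 without the latter, with ranges of -0.33 to 0.027 for *Krt19* and -0.013 to 0.28 for *Krt8*. For the ligature average, *Lrrn4* turned to -0.060 with the epididymal covariate, -3.7e-05 with weights, -0.13 without both and -0.22 without the epididymal libraries (range -0.077 to 0.16), *Upk3b* to 0.0099 with quantile scaling (range -0.16 to 0.058), *Krt19* to 0.066 with weights and 0.080 without both, and *Wt1* to -0.022 without the epididymal libraries. Fits of only the compared groups equal the original for the genotype and ligature averages. The lowest member count was 169 reads.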
